A study of Homo sapiens with 4 samples.

Results

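The mitosis and G2/M genes examined here are 40 genes of the cell division programme, chosen by name as cyclins, mitotic kinases, spindle, kinetochore and checkpoint genes, and all 40 are among the 17755 genes of the deposited table. There were 4 sets of sequenced cells, SK-MEL-28 treated with siNC, SK-MEL-28 treated with siLINC00622, A375 treated with siNC and A375 treated with siLINC00622, with 1 library per condition. SK-MEL-28 and A375 are established human melanoma cell lines, LINC00622 is a long non-coding RNA, siLINC00622 is RNA interference against it and siNC is the control siRNA. All cells were transfected at about 70% confluency, kept for 6 h without serum and then for 24 h with 10% serum before RNA was taken. Each line is a single source of cells, so a value of 1 line is 1 transfection, and no difference within a line has a replicate check.

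Cells that divide pass from DNA synthesis through G2 into mitosis, and CDK1 bound to a B-type cyclin starts that entry. The spindle then captures chromosomes at their kinetochores, a checkpoint holds the anaphase-promoting complex until all are attached, and that complex then destroys securin and the cyclins so that sister chromatids separate. Transcripts of these genes rise and fall with the cell cycle, because complexes on their promoters (DREAM, and the MuvB core with MYBL2 and FOXM1) repress them in resting cells and activate them in G2. They are widely used as a proliferation signature in melanoma and other tumours. In bulk RNA, fewer cells in G2 and mitosis and less RNA per such cell cannot be told apart.

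Library totals lay between 31269923 and 36384819 counts, of which 99.7% to 99.8% fell on listed genes. LINC00622 itself had 309 counts in SK-MEL-28 siNC and 135 in SK-MEL-28 siLINC00622, and 135 counts in A375 siNC and 86 in A375 siLINC00622. Its log2 ratio of siLINC00622 over siNC was -1.21 for SK-MEL-28, with a 95% interval of -1.53 to -0.93, and -0.84 for A375, with one of -1.27 to -0.46. Here and below a ratio within a line compares counts scaled by the TMM method, and its interval is a Clopper-Pearson interval for counting error only. The melanocyte lineage marker SOX10 had 118 to 153 FPKM (fragments scaled by gene length and by library size) in the 4 libraries. The pigment cell gene MLANA had 295 and 332 FPKM in SK-MEL-28 but 0.982 and 0.881 FPKM in A375. MITF, PMEL, TYR, DCT and S100B were far lower in A375 too. With siNC, A375 had 5.29, 2.24, 0.210, 0.645 and 5.54 FPKM of them, against 80.1, 940, 104, 341 and 147 FPKM for SK-MEL-28. TYRP1 stayed under 1 FPKM in every library. Of the 8 lineage markers examined, SOX10 alone was thus high in both lines, and the lines differ widely in most of the others. Of the markers of other cell types, 0 of 4 leukocyte, 1 of 4 keratinocyte, 1 of 4 endothelial and 1 of 5 fibroblast genes are listed. The listed ones were not all near 0. The fibroblast gene LUM had 9.08 and 9.77 FPKM in SK-MEL-28 and 2.24 and 3.83 FPKM in A375. KRT14, of keratinocytes, had 0.080 and 0.026 FPKM in SK-MEL-28 but 7.01 and 6.14 FPKM in A375. KDR, of endothelium, had 0.038 and 0.018 FPKM in SK-MEL-28 and 1.29 and 1.66 FPKM in A375.

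A pair of short motifs recurs in promoters of this programme, the CHR element that the MuvB core binds and the CCAAT box that NF-Y binds. They are shown as a description of the members, and whether they bear on the ratios in these libraries was not tested. The members were chosen by name as genes of this programme, so a high share among them is no result of these libraries. RefSeq promoter windows (GRCh38.p14, 250 bases before to 50 after a start) were found for 33 of the 40 members, and FOXM1, BUB3, TTK, UBE2C, AURKA, BIRC5 and TPX2 had none. The letters TTTGAA or TTCGAA, searched on both strands, were in 28 of the 43 member windows (65.1%) and in 16.4% of all 35116 windows. Below, CHR stands for these letters alone, and other forms of the element were not searched. CCAAT, searched on both strands, was in 31 of the 43 (72.1%) and in 34.6% of all windows, and both motifs were in 53.5% and 6.38%. The following stretches run from 110 bases before to 30 after the start, 5′ to 3′ in the sense of the gene, with CHR and CCAAT letters of either strand in capitals. The first 5 genes were lower in both lines and hold a CHR there, at positions 25, -29, -29, -55 and -23 counted from the start as 1. MYBL2 and CCNA2 were not lower in SK-MEL-28 and hold neither of the searched forms. The last pair is shown because it goes the other way. CDC25B, also not lower in SK-MEL-28, holds a CHR at -38 in a later one of its 4 windows. CCNB1, lower in both lines, holds neither searched form. The 9 windows were picked by hand and do not stand for all members. INCENP, not shown, holds a CHR at -10, yet its ratio in SK-MEL-28 was -0.01, with an interval of -0.06 to 0.04 that included 0.
MAD2L1, chr4:120066819-120066958, minus strand: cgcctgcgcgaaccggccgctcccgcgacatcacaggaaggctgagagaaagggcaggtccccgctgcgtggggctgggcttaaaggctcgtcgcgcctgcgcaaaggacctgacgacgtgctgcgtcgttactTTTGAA
CCNB2, chr15:59105036-59105175, plus strand: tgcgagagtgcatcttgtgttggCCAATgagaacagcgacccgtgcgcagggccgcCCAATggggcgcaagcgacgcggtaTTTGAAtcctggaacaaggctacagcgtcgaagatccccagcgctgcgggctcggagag
PLK1, chr16:23678779-23678918, plus strand: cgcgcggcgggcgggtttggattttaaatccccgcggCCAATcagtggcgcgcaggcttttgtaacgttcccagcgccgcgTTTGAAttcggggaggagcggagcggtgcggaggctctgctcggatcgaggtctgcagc
KIF23, chr15:69414239-69414378, plus strand: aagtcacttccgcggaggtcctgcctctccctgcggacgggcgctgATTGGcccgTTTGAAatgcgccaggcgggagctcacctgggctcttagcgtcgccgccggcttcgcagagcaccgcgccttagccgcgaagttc
BUB1B, chr15:40160959-40161098, plus strand: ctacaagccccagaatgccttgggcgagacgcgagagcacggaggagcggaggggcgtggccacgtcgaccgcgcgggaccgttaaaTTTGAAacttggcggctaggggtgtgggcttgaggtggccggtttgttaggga
MYBL2, chr20:43667004-43667143, plus strand: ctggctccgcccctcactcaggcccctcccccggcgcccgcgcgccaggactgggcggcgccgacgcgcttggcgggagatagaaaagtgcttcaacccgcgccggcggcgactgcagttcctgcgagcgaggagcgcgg
CCNA2, chr4:121823854-121823993, minus strand: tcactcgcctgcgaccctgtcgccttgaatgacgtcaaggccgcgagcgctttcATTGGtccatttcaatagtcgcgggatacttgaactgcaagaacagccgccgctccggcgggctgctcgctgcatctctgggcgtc
CDC25B, chr20:3796200-3796339, plus strand: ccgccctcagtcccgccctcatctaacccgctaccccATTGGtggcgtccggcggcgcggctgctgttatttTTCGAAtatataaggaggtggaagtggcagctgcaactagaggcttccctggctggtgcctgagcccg
CCNB1, chr5:69167040-69167179, plus strand: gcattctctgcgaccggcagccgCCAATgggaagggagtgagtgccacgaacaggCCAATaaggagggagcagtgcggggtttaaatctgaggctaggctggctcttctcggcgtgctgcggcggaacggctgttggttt
In the first window listed for each gene, 23 of the 33 members held TTTGAA or TTCGAA on either strand. Their median log2 ratio of siLINC00622 over siNC was -0.35 for SK-MEL-28 and -0.36 for A375, and that of the 10 members without the letters was -0.23 and -0.37. Those 10 were the 4 members not lower in SK-MEL-28 (CCNA2, CDC25B, AURKB and MYBL2) and 6 that were lower in both lines (CCNB1, CDC25C, PTTG1, CENPE, KIF20A and KIF2C), and 2 of the 10, CDC25B and CDC25C, hold a CHR in another window. A match of letters is not a shown binding site, and a lack of these letters does not show that a promoter has no CHR element.

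With LINC00622 depleted, transcripts of nearly the whole programme were lower in both lines, each by a modest amount. In SK-MEL-28, 36 of 40 members were lower with siLINC00622 (50.5% of all genes were), and in A375 40 of 40 were (49.3% of all genes). Their median log2 ratio was -0.33 in SK-MEL-28 (a difference of -20.2%) and -0.35 in A375 (-21.8%), while the median of all genes tested was 0.00 in both lines. The counting interval lay below 0 for 34 of 40 members in SK-MEL-28, against 24% of all genes, and for 39 of 40 in A375, against 22%. Both lines were lower for 36 of 40 members, against 31.3% of the 14721 genes with enough counts in both lines. The differences were small: past 1.5-fold lower were 2 members in SK-MEL-28, MAD2L1 and PRC1, where 6.49% of all genes were, and 0 in A375, where 4.34% were. None of the 40 was past 1.5-fold higher in either line (4.56% and 4.52% of all genes). Genes at the level of the members other than PRC1 give another background. In SK-MEL-28, 365 of 9347 such genes were past 1.5-fold lower and 194 higher, and in A375 116 of 9329 were lower and 171 higher. The counting interval lay below 0 for 2882 of them in SK-MEL-28 and 2713 in A375. Summed over the members, counts took 0.653% of all listed counts in SK-MEL-28 siNC and 0.530% with siLINC00622, and 0.761% and 0.601% in A375. By the study's criteria, a fold above 1.5 with p below 0.05, here with an assumed dispersion of 0.1, 0 members passed in either line (0.608% and 0.304% of all genes did), and the lowest member p was 0.24 and 0.40 in edgeR's exact test, which compares libraries and not conditions.

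**Figure D1:**
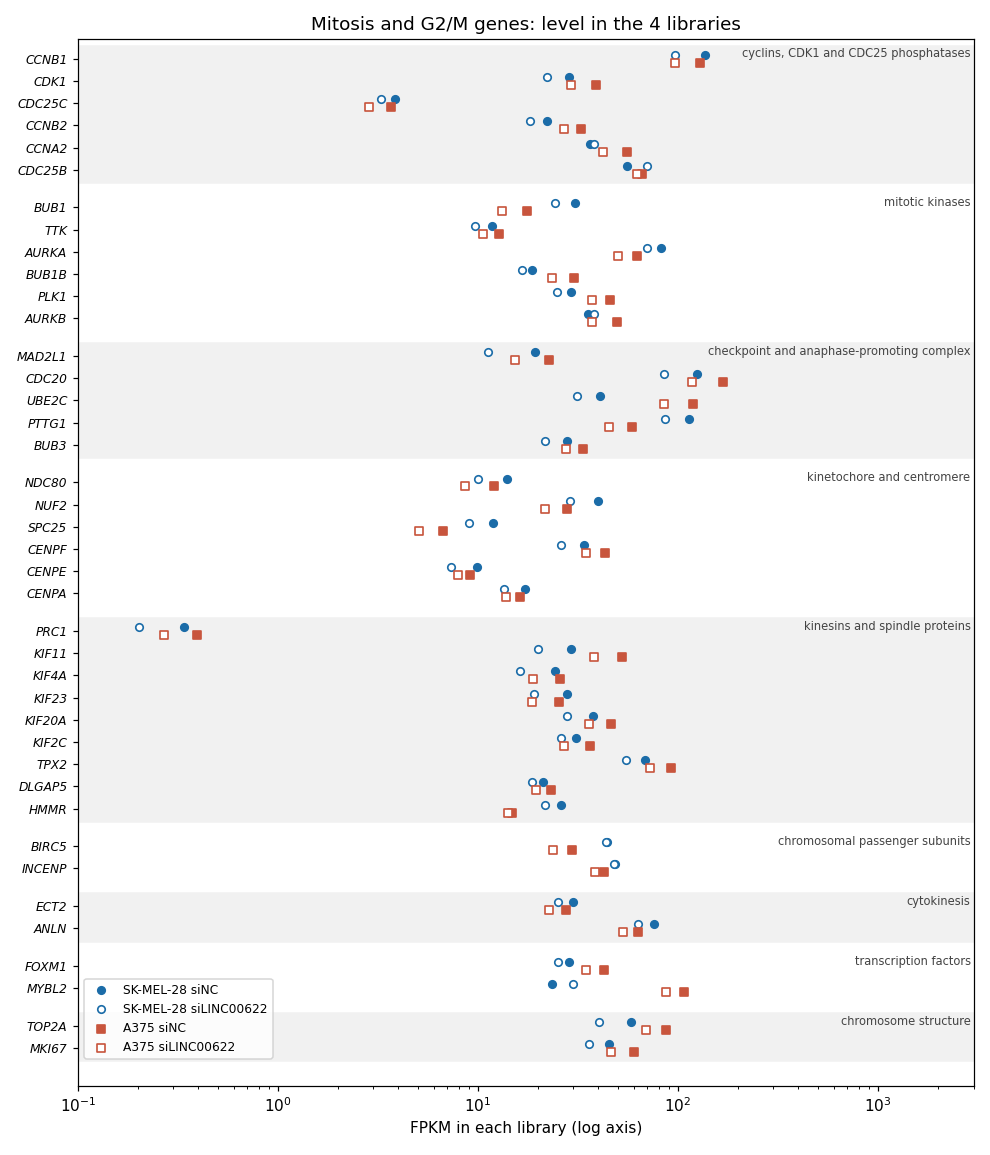
FPKM of each of the 40 members (log axis) in the 4 libraries, with circles for SK-MEL-28, squares for A375, filled symbols for siNC and open symbols for siLINC00622, grouped by role. Open symbols lie to the left of filled ones for 36 members in SK-MEL-28 and for all 40 in A375, and PRC1 stands apart at under 1 FPKM.

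The members that drive entry into mitosis spanned a wide range of levels. Cyclin B1 (CCNB1), the main partner of CDK1, had 136 FPKM in SK-MEL-28 siNC and 96.0 with siLINC00622, and 129 and 96.3 FPKM in A375. Its log2 ratio was -0.49 (-0.53 to -0.45) and -0.41 (-0.45 to -0.37), so both lines were lower and by close amounts. CDK1, the kinase itself, had 28.5 and 22.2 FPKM for SK-MEL-28 and 39.1 and 29.04 FPKM for A375, with log2 ratios of -0.35 and -0.42. CCNB2, a second B-type cyclin, was at -0.27 in both lines, from 22.2 to 18.2 FPKM in SK-MEL-28 and from 32.7 to 26.9 FPKM in A375. CDC25C, a phosphatase that activates CDK1, was low, with 3.86, 3.28, 3.68 and 2.85 FPKM in the same order of libraries, and its ratios were -0.22 and -0.36. The remaining genes of this role went apart between the lines. Cyclin A2 (CCNA2), which acts from S phase to early mitosis, had 36.4 and 37.8 FPKM in SK-MEL-28, a log2 ratio of 0.07 whose interval, -0.002 to 0.14, included 0, and 55.3 and 42.0 FPKM in A375, a ratio of -0.39. CDC25B, another phosphatase of this family, was higher with siLINC00622 in SK-MEL-28, with 55.5 and 69.6 FPKM (0.34, interval 0.30 to 0.39), and near level in A375, with 66.3 and 62.5 FPKM (-0.07, interval -0.12 to -0.03).

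Of the 6 mitotic kinases, 5 were lower in both lines, with role medians of -0.21 for SK-MEL-28 and -0.33 for A375. PLK1, which acts in mitotic entry and at the spindle poles, had 29.01 and 24.9 FPKM for SK-MEL-28 and 45.7 and 37.2 FPKM for A375 (-0.20 and -0.29). AURKA, the kinase of the centrosomes, had 81.8 and 69.8 FPKM for SK-MEL-28 and 62.3 and 49.96 FPKM for A375 (-0.22 and -0.31). The checkpoint kinases TTK and BUB1 were at -0.27 and -0.32 for SK-MEL-28 and at -0.26 and -0.40 for A375, and BUB1B, which carries the checkpoint signal to CDC20, was at -0.16 and -0.35. AURKB, the kinase of the chromosomal passenger complex, was the exception. It had 35.4 FPKM in SK-MEL-28 siNC and 37.9 with siLINC00622 (0.11, interval 0.04 to 0.19), against 49.3 and 37.0 FPKM in A375 (-0.41). Of its partners in the passenger complex, BIRC5 (survivin) was at -0.01 for SK-MEL-28 and -0.30 for A375, and INCENP, the scaffold, at -0.01 and -0.14. For both the counting interval in SK-MEL-28 included 0, at -0.06 to 0.05 for BIRC5 and -0.06 to 0.04 for INCENP. The remaining subunit CDCA8 (borealin), which is no member, was lower in both lines, at -0.30 (-0.38 to -0.22) for SK-MEL-28 and -0.39 for A375. The subunits thus had unlike ratios in the SK-MEL-28 libraries, a difference without a replicate check.

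The checkpoint and anaphase group had the lowest role median in A375 (-0.48), at -0.40 in SK-MEL-28, and all 5 of its members were lower in both lines. MAD2L1, the checkpoint protein that binds and holds CDC20, had 19.3 FPKM in SK-MEL-28 siNC and 11.2 with siLINC00622, and 22.5 and 15.2 FPKM in A375. These are log2 ratios of -0.78 (-0.86 to -0.70) and -0.55 (-0.62 to -0.49), the lowest of the 40 members in each line. CDC20, the co-activator of the anaphase-promoting complex, had 125 and 85.5 FPKM for SK-MEL-28 and 167 and 117 FPKM for A375, with ratios of -0.53 and -0.50. By FPKM it was the most abundant member in both A375 libraries. UBE2C, which hands ubiquitin to that complex, had 40.5 and 31.2 FPKM for SK-MEL-28 and 119 and 85.0 FPKM for A375 (-0.36 and -0.48). Securin (PTTG1), the inhibitor of separase, had 114 and 85.7 FPKM for SK-MEL-28 and 59.2 and 45.1 FPKM for A375 (-0.40 and -0.38). BUB3, which recruits checkpoint proteins to kinetochores, was at -0.35 and -0.27.

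All 6 kinetochore and centromere members were lower in both lines, with every interval below 0. NDC80 and NUF2, which bind microtubule ends as a pair, had ratios of -0.47 and -0.45 for SK-MEL-28 and of -0.46 and -0.36 for A375. NDC80 had 13.9 and 9.99 FPKM for SK-MEL-28 and 11.9 and 8.61 FPKM for A375. Their complex partner SPC25 was at -0.40 in both lines. CENPE, the kinesin that moves chromosomes to the equator, was at -0.41 for SK-MEL-28 and -0.20 for A375. CENPF was at -0.37 and -0.30, and CENPA, the histone that marks centromeres, at -0.33 and -0.22.

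Motors and spindle proteins had role medians of -0.42 in both lines. KIF11, which pushes the spindle poles apart, had 29.3 FPKM in SK-MEL-28 siNC and 20.0 with siLINC00622, and 52.5 and 37.8 FPKM in A375 (-0.54 and -0.47). KIF23, a motor of the central spindle, had 28.0 and 18.97 FPKM for SK-MEL-28 and 25.3 and 18.7 FPKM for A375 (-0.55 and -0.43). KIF4A, which shortens central spindle microtubules, was at -0.55 and -0.43 too, and KIF20A at -0.42 and -0.36. KIF2C, a microtubule depolymerase, stood at -0.24 for SK-MEL-28 and -0.42 for A375. TPX2, the activator of AURKA, was at -0.30 and -0.34, and DLGAP5, which stabilises kinetochore fibres, at -0.16 and -0.25. HMMR, a spindle assembly protein, was at -0.25 in SK-MEL-28, and at -0.06 in A375 its interval of -0.15 to 0.04 included 0, which made it the sole member of which this was so in that line. PRC1, the bundler of antiparallel microtubules, had 62 counts in SK-MEL-28 siNC and 38 with siLINC00622, and 68 and 54 in A375. Its ratios of -0.71 and -0.52 therefore had wide intervals, -1.36 to -0.13 and -1.09 to -0.01. A gene without a symbol, ENSG00000284946, overlaps PRC1 on the same strand and held 286, 253, 302 and 310 counts in the same order of libraries, so the PRC1 level is uncertain. Altogether 13 members overlap another listed gene, and whether counting used strand is not given in the sources used here.

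**Figure D2:**
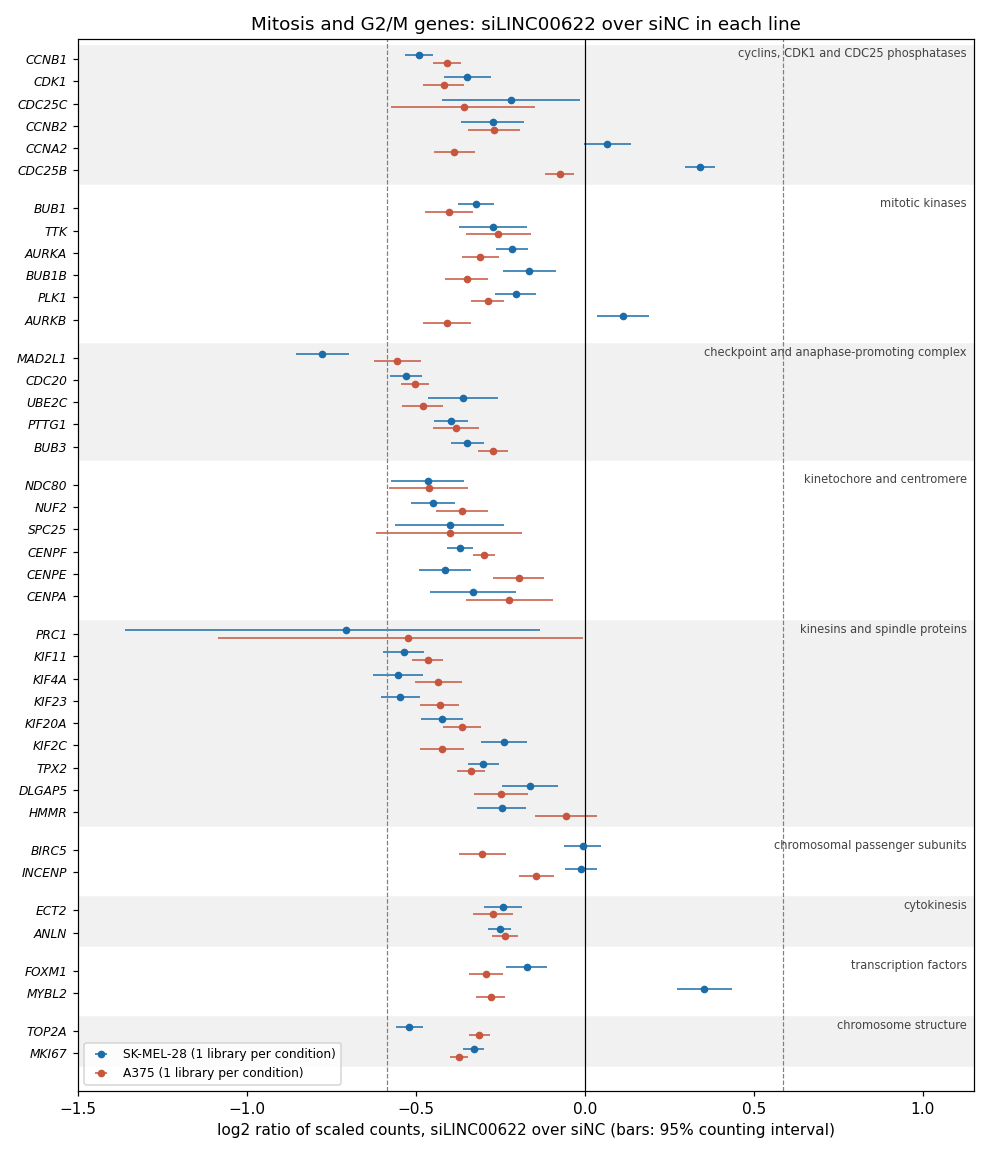
Log2 ratio of siLINC00622 over siNC for each member in SK-MEL-28 (blue) and A375 (red), with 95% Clopper-Pearson bars for counting error and dashed lines at 1.5-fold, grouped by role. Points lie left of 0 for 36 members for SK-MEL-28 and 40 for A375, and CDC25B, MYBL2, AURKB and CCNA2 are the 4 to the right of it in SK-MEL-28.

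Cytokinesis genes were lower by close amounts, with ANLN, a scaffold of the contractile ring, at -0.25 and -0.24 and ECT2, the activator of RhoA at the division plane, at -0.24 and -0.27. The chromosome genes had high levels. TOP2A, which untangles sister chromatids, had 58.4 and 40.3 FPKM for SK-MEL-28 and 86.9 and 69.5 FPKM for A375 (-0.52 and -0.31). MKI67, the usual proliferation marker, had 45.4 and 35.8 FPKM for SK-MEL-28 and 60.4 and 46.3 FPKM for A375 (-0.33 and -0.37). The transcription factors of the programme stood on opposite sides of 0 in SK-MEL-28. FOXM1, which drives G2/M genes, had 28.6 and 25.1 FPKM for SK-MEL-28 and 42.7 and 34.7 FPKM for A375 (-0.17 and -0.29). MYBL2, which partners the MuvB core in S phase, had 23.5 FPKM in SK-MEL-28 siNC and 29.7 with siLINC00622 (0.35, interval 0.27 to 0.43), and 107 and 87.4 FPKM in A375 (-0.28, interval -0.32 to -0.24). Whether the treatment acted differently in the 2 lines could not be tested for any member, since 4 libraries leave no residual degree of freedom for that term.

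The order of the ratios was partly alike in the lines. Over the 40 members, Pearson's r between the ratio in SK-MEL-28 and that in A375 was 0.578 and Spearman's rho 0.584, and over the 14721 genes r was 0.257 and rho 0.302. These are descriptions across genes of the same 4 libraries, and genes are not independent replicates.

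**Figure D3:**
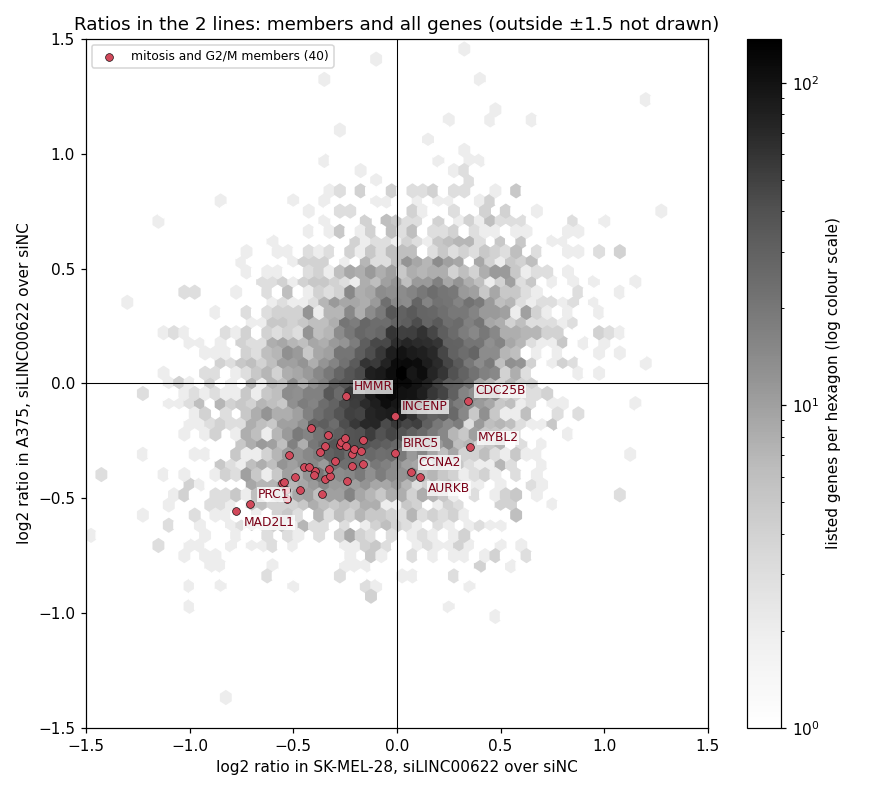
Log2 ratio of siLINC00622 over siNC in A375 against that in SK-MEL-28 for the members (red points) over the density of all genes (grey hexagons, log colour scale), within 1.5 log2 units of 0. Of the 40 members, 36 lie below 0 in both lines, where 31.3% of all genes lie.

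The lines are the only repeat of the treatment, so both were also fitted together, with cell line as a block, in edgeR's quasi-likelihood test over 16310 genes with Benjamini-Hochberg adjustment. No member passed an adjusted p of 0.05, where 0.282% of all genes did (27 lower and 19 higher). The lowest adjusted p-values of members were 0.070 for MAD2L1 (log2 fold change -0.65, SE 0.10), 0.078 for CDC20 (-0.51, SE 0.08) and 0.090 for KIF11 (-0.49, SE 0.08), each lower in both lines. At an unadjusted p below 0.05, 31 of 40 members were lower, against 7.07% of all genes, and 0 were higher, against 7.57%. With DESeq2 and the same design, 8 members passed the adjusted threshold, all lower: MAD2L1, CDC20, KIF11, CCNB1, KIF23, KIF4A, TOP2A and MKI67. Of the 8088 genes to which DESeq2 gave an adjusted p, 1.98% were lower and 1.9% higher at that threshold. In edgeR with no filter beyond 1 count, 2 members passed, MAD2L1 and CDC20, both lower, where 0.36% of all genes were lower and 0.321% higher. With 1 residual degree of freedom per gene, the spread in this fit comes mostly from the other genes. Over the members the median log2 fold change was -0.30, and 38 of 40 were below 0. The exceptions were CDC25B (0.14, adjusted p = 0.61 in edgeR's quasi-likelihood test) and MYBL2 (0.04, adjusted p = 0.93).

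Other genes of division were lower alongside the members. Of 81 further mitotic genes, 79 are listed, of which 75 were lower for SK-MEL-28 and 79 for A375, with median log2 ratios of -0.27 and -0.35. In the fit over both lines 1 of the 79 passed the adjusted threshold, lower, and 57 were lower at an unadjusted p below 0.05. That gene was LMNB1 (lamin B1, of the nuclear lamina), at -0.65 (SE 0.08, adjusted p = 0.0498 in edgeR's quasi-likelihood test). Past 1.5-fold lower in at least 1 line were also NCAPH (condensin) at -0.59 for SK-MEL-28 and -0.55 for A375, RACGAP1 (partner of KIF23) at -0.59 and -0.49, KNL1 (kinetochore scaffold) at -0.63 and -0.43, DEPDC1 at -0.63 and -0.25, and FBXO5 (inhibitor of the anaphase-promoting complex) at -0.63 and -0.36. In A375 the genes past that fold were, beside LMNB1, CENPK (-0.66, -0.25 in SK-MEL-28), KIF18B (-0.62, -0.25), PKMYT1, which restrains CDK1 (-0.70, -0.16), and OIP5 (-0.95, -0.57).

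Genes of the step before, G1/S, were lower too. For SK-MEL-28 the difference in their summed and scaled counts was -18.2% and that of the members -18.1%, and for A375 these were -26.2% and -20.5%. The difference between the lists was not tested. All 40 are listed, 37 were lower for SK-MEL-28 and 40 for A375, with median log2 ratios of -0.27 and -0.39. In the fit over both lines 2 of 40 passed the adjusted threshold, UHRF1 at -0.80 (SE 0.09) and E2F2 at -0.93 (SE 0.11), each with an adjusted p of 0.046 in edgeR's quasi-likelihood test, and 31 were lower at an unadjusted p below 0.05. UHRF1 maintains DNA methylation after replication and E2F2 is an activator of S-phase genes. Past 1.5-fold in both lines were also CCNE2, a cyclin of S-phase entry, at -1.02 for SK-MEL-28 and -0.72 for A375, and E2F8, a repressor, at -0.82 and -0.85. Past it in A375 only were MCM10, a replication factor, at -0.57 and -0.61, and RRM2, the ribonucleotide reductase subunit, at -0.53 and -0.70.

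Subunits of the anaphase-promoting complex, with its co-activator FZR1, were near level as a list. All 15 are listed, 5 were lower for SK-MEL-28 and 10 for A375, the medians were 0.04 and -0.03, and 0 passed the adjusted threshold or an unadjusted p below 0.05 in the fit over both lines. By the mean of the 2 lines the highest were ANAPC16 (0.15 and 0.22) and ANAPC13 (0.13 and 0.21), and the lowest were ANAPC15 (-0.36 and -0.20) and CDC26 (-0.28 and -0.11). Of 19 regulators, namely subunits of DREAM and NF-Y, CDK inhibitors and RB1, 16 were lower for SK-MEL-28 and 16 for A375, with medians of -0.15 and -0.12, and 0 passed the adjusted threshold (2 lower and 1 higher at an unadjusted p below 0.05). NFYB, an NF-Y subunit, was at -0.71 and -0.46. The CDK inhibitor CDKN1C went opposite ways, with 108 and 39 counts for SK-MEL-28 (-1.454) but 323 and 551 for A375 (0.56). The lists of the compared genes were written with results of these data known, and their counts describe these libraries.

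**Figure D4:**
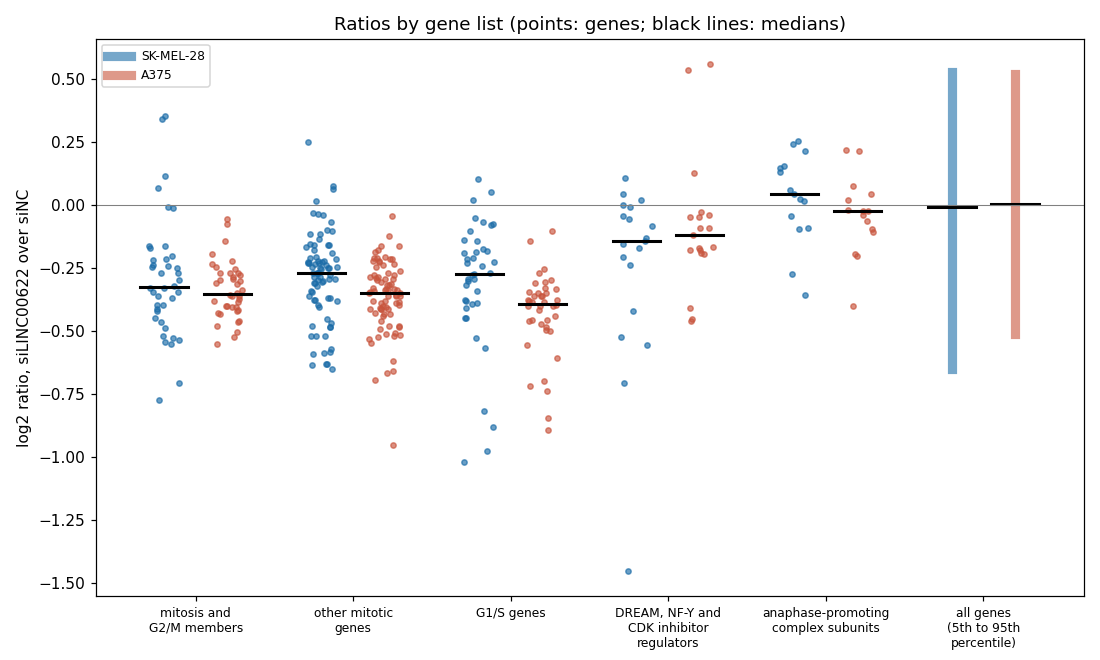
Log2 ratio of siLINC00622 over siNC for each gene of 5 lists in SK-MEL-28 (blue) and A375 (red), with black lines at the medians and, at the right, bars from the 5th to the 95th percentile of all genes. Medians of the members, of other mitotic genes and of G1/S genes lie between -0.27 and -0.39, and those of anaphase-promoting complex subunits at 0.04 and -0.03.

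Short interfering RNAs can lower other transcripts through a match of their seed, bases 2 to 8 of the guide strand, in a 3′ UTR. The study lists a pair of siRNAs against LINC00622, and the labels do not say which one the libraries used. Their target strands in LINC00622 are shown with the 7 bases that pair with the seed in capitals, at bases 555 to 573 and 815 to 833 of the 1570-base transcript.
siLINC00622_1: ccctaaagaaaGTGAGAAa
siLINC00622_2: ggcaacctctaATTGACTt
Those 7 letters stood in the longest annotated 3′ UTR (GENCODE 29) of 6 members for the first siRNA (BUB1, BUB3, MAD2L1, SPC25, KIF23 and BIRC5) and of 4 for the second (AURKA, KIF4A, PRC1 and FOXM1). The median log2 ratio of the 30 members with neither was -0.29 for SK-MEL-28 and -0.34 for A375. Medians were -0.37 and -0.40 for the 6 genes and -0.38 and -0.37 for the 4. Of the members past 1.5-fold in SK-MEL-28, MAD2L1 holds a match of the first siRNA only and PRC1 of the second only. The share of all genes with such a match is not given here. A longer 3′ UTR has more room for a match, and those of BUB3 (6632 bases) and MAD2L1 (4510 bases) were among the longest of the members. The part of seed matches in these ratios was not tested.

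Levels of the programme also differed between the lines, gene by gene and in both directions. From the same fit, 12 members were lower in A375 than in SK-MEL-28 at an adjusted p of 0.05 and 13 were higher, against 33.8% and 35% of all genes, so the members' shares (12 and 13 of 40) lay near those of the background. The members' counts took 0.653% of listed counts in SK-MEL-28 siNC and 0.761% in A375 siNC, and the median member had 29.5 and 37.7 FPKM. MYBL2 was the most unequal, with 23.5 and 29.7 FPKM in SK-MEL-28 against 107 and 87.4 FPKM in A375 (log2 fold change of A375 over SK-MEL-28 1.70, SE 0.15, adjusted p = 7.9e-05 in edgeR's quasi-likelihood test). UBE2C came next among the higher genes (1.34, SE 0.09, adjusted p = 2.7e-05 in edgeR's test). Lower in A375 were PTTG1 (-1.10), BUB1 (-1.003), SPC25 (-0.995), BIRC5 (-0.90) and HMMR (-0.88). Leaving out 1 library, with treatment out of the fit, gave 7 members lower and 2 higher without A375 siNC, 5 and 9 without A375 siLINC00622, 14 and 2 without SK-MEL-28 siLINC00622, and 8 and 9 without SK-MEL-28 siNC. In the same order of fits, 24.9%, 26.1%, 28.2% and 29.2% of all genes were lower and 23.6%, 24.3%, 28.4% and 29.6% were higher. MYBL2, UBE2C and these 5 genes, 7 in all, passed the threshold in all 8 alternatives tried for this comparison, whereas the other 18 of the 25 lost it in at least 1. In that group were KIF11 (0.72), TOP2A (0.51), PLK1 (0.45), BUB1B (0.44), CCNB2 (0.40) and FOXM1 (0.35), higher in A375, and NUF2 (-0.62), AURKA (-0.60), ANLN (-0.43), INCENP (-0.42) and NDC80 (-0.38), lower. With 1 line of each kind and 1 source of cells per line, line and culture cannot be told apart.

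**Figure D5:**
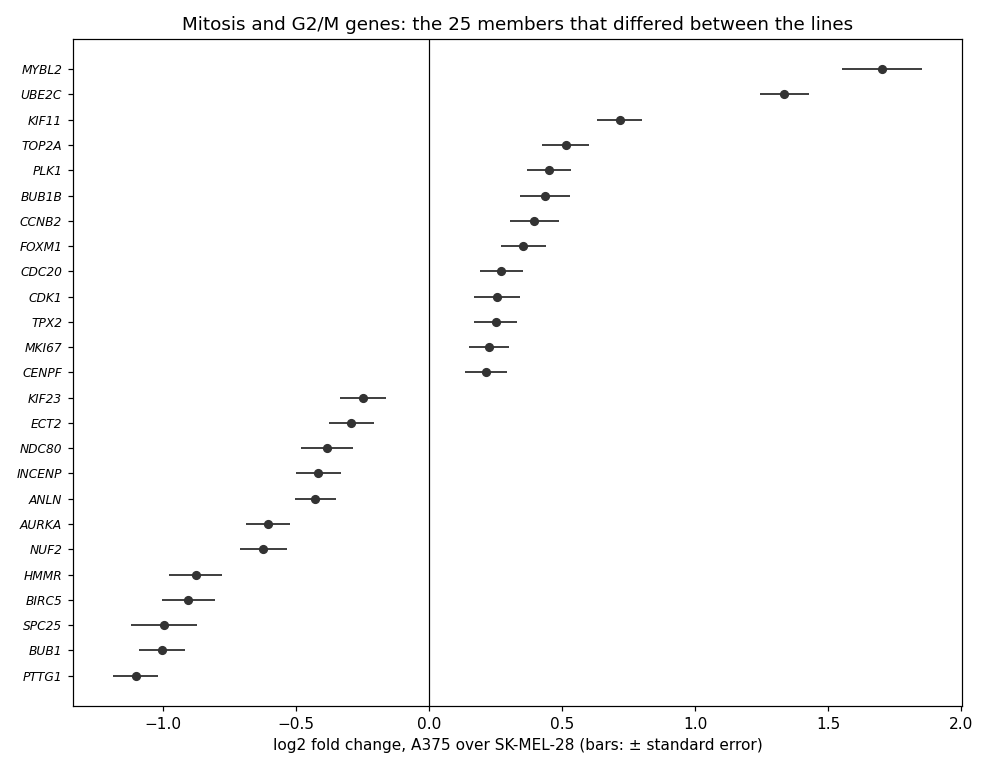
Log2 fold change of A375 over SK-MEL-28, with its standard error as bars, for the 25 members past an adjusted p of 0.05 in edgeR's quasi-likelihood fit over the 4 libraries. They run from -1.10 for PTTG1 to 1.70 for MYBL2, with 12 to the left of 0 and 13 to the right.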

How the data were processed

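Poly(A)-enriched RNA of 4 libraries, grouped by the cell line and treatment in their labels, was sequenced. Per the submitters' processing notes, the build hg19 and HISAT2, TopHat2, Bowtie2 and HISAT were used, with no role or version; the counting and annotation are not given in the sources used here. The authors deposited raw counts per gene. CPM values, which the authors deposited, are scaled to the whole library, and counts divided by CPM gave the totals (31269923 to 36384819). The FPKM columns that the authors deposited divide by gene length and depth, by a method not given. TPM values that the authors deposited were not used.

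Within a line, counts were scaled by TMM (edgeR 4.0.16, R 4.3.3) on the totals, and log2 ratios used a prior count of 2 and 95% Clopper-Pearson intervals, which cover counting error only, since reads carry no molecular identifiers. Genes with at least 10 counts in 1 library of the line were kept, 15442 in SK-MEL-28 and 16021 in A375. Across lines, edgeR's quasi-likelihood test took cell line and treatment as terms, with at least 10 counts in 2 libraries and Benjamini-Hochberg adjustment over all genes. DESeq2 1.42.0 was an alternative. With these terms, the 1 residual degree of freedom per gene is the disagreement of the 2 lines on the treatment difference, and the spread is shared over genes. The p-values thus measure that spread and not one between repeat cultures of a condition, since each condition has 1 library. The labels give no replicate numbers that pair libraries, and the cell line was the block.

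The members and the lists of other genes were chosen with earlier results of these data known. All 40 members are named. Of the other lists, genes past 1.5-fold in a line with at least 50 counts are named, or else the 2 highest and 2 lowest, plus LINC00622. Values of CDCA8 are given outside this rule, as are most of those under Other observations. A regulator of an earlier list is not reported here, and the list was recomputed without it. Directions between the lines are given for the 25 members past the threshold. RefSeq promoter windows, GENCODE 29 features (GRCh38) and the siRNA sequences of the study's supplement were matched by symbol, identifier or letters, and no coordinates were taken from the table, which has none. Scripts were tested on simulated data. Figures used matplotlib in Python 3.11.15.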

Additional observations from a re-analysis of the deposited data

Results flagged for a closer look

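Among the 40 members, 4 had ratios of siLINC00622 over siNC of opposite sign in the lines. CCNA2 was at 0.067 for SK-MEL-28 and -0.39 for A375 on the log2 scale. CDC25B was at 0.34 and -0.075, AURKB at 0.11 and -0.41, and MYBL2 at 0.35 and -0.28, in the same order of lines. The counting interval of CCNA2 in SK-MEL-28 included 0, and those of the other 7 values did not. These differences between lines were not tested, since 1 library per condition leaves no residual degree of freedom for them.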

How the results depend on the processing

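The members' median log2 ratio and the number of lower members stayed close to the values reported under every alternative tried for them in each line; for the median the tolerance was the median half-width of the members' counting intervals, chosen here because there are no replicates. The alternatives chosen after seeing the data were a comparison with genes at the members' level, a regression on GC content, length and level, members without a seed match, members without PRC1 and the unadjusted p. Of the 2 members past 1.5-fold in SK-MEL-28, 1 was left with deposited FPKM (pseudocount 1 or 0.1) and with at least 100 counts. Over 10 alternatives this number ran from 1 to 3, and the lowest CDC20 ratio, -0.60, was past 1.5-fold. At a dispersion of 0.01, 1 member passed the study's criteria in SK-MEL-28. The share of all genes that passed at that dispersion is not given here, so this count says nothing about the members as a set.

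In the fit over both lines, 27 genes were lower and 19 higher at an adjusted p of 0.05. DESeq2 gave 160 and 154 (8 members lower), DESeq2 size factors in edgeR 0 and 1, no filter 64 and 57 (2 members lower, MAD2L1 and CDC20), and at least 100 counts 0 and 0. Without the cell line block the counts were 0 and 0, the members' lowest adjusted p was 1.00, and MYBL2 turned to -0.11. At an unadjusted p, 31 members were lower with each edgeR scaling, 30 with at least 100 counts, 22 with DESeq2 and 0 without the block. Over these alternatives the number of all genes lower at an unadjusted p below 0.05 moved too, from 20 to 1221. The share of all genes in each fit is not given here, so the member counts cannot be compared between fits. The calls in this fit thus depend on the tool, the scaling, the filter and the block. Leaving out a library leaves no residual degree of freedom for it.

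Between the lines, leaving out each library in turn, without treatment as a term, gave 5 to 14 members lower in A375 (7 without A375 siNC) and 2 to 9 higher, with 3803 to 4597 genes lower and 3593 to 4649 higher (3697 without A375 siLINC00622). Without SK-MEL-28 siLINC00622, CDC20 turned to -0.015 and CENPF to -0.0064. Of the 25 members past the threshold, 18 lost it under at least 1 of 8 alternatives. Of the 15 others, for which no direction is given, 11 changed sign in at least 1. The cause was not tested. With 38 to 68 counts in a library, PRC1 is limited by depth, and the other members by the single library per condition.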

Other observations

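Outside the members, 4 of 79 further mitotic genes and 3 of 40 G1/S genes were not lower with siLINC00622 in SK-MEL-28, beside 10 of 15 subunits of the anaphase-promoting complex and 3 of 19 regulators. The 7 genes of the first pair of lists are named here after their values were seen. Of the 79 further mitotic genes the 4 were CDC25A, a phosphatase of the CDK-activating family (log2 ratio 0.25 for SK-MEL-28, -0.21 for A375), CKS2, a CDK-binding protein (0.07 and -0.44), TACC3 of the spindle (0.06 and -0.24) and the condensin subunit NCAPG2 (0.01 and -0.30). Of the 40 G1/S genes the 3 were ORC1 (0.10 and -0.31) and ORC6 (0.05 and -0.25) of the origin recognition complex, and the cohesion factor DSCC1 (0.02 and -0.30). Each of the 7 was lower in A375, and the difference between the lines was not tested.

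CDKN1A, the CDK inhibitor p21, had 241 and 254 counts in SK-MEL-28 and 4791 and 8029 counts in A375, siNC first, with log2 ratios of 0.04 and 0.54. In the fit over both lines its log2 fold change was 0.35 (SE 0.14, adjusted p = 0.30 in edgeR's quasi-likelihood test), so it did not pass the threshold. CDKN1A was not past 1.5-fold in either line and is named here outside the rule for naming genes. Of the other CDK inhibitors examined, CDKN1B was at -0.21 for SK-MEL-28 and -0.04 for A375, CDKN2A at 0.11 and -0.05, and CDKN1C at -1.45 and 0.56.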
